A study of Mus musculus with 672 samples.

Results

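Genes of the early exocrine pancreas, 7 in number, were followed cell by cell. These were the carboxypeptidases Cpa1 and Cpb1, the lipase Cel, the colipase Clps, the lipase-related Pnliprp1, the chymotrypsinogen Ctrb1 and the trypsin inhibitor Spink1. They were listed by symbol, matched to Ensembl identifiers, and all 7 were found among the 46078 genes in the count tables. The cells came from embryonic pancreas of C57BL/6 mice at embryonic days E13.25 and E15.25, and the labels name no transgene, mutation or treatment. Ages are those of the age labels, although the protocol given for the later cells names the earlier age. Single cells were stained with antibodies that the labels do not name, sorted by flow cytometry into 7 plates of 96 wells, and sequenced from full-length cDNA. The 4 plates of E13.25 bear pancreas numbers 1 to 4, with no region, and only the titles of pancreas 4 carry a further mouse number. The 3 plates of E15.25 were from bud 1 tip, bud 2 tip and bud 2 trunk, so that 2 of them carry 1 bud number. The plate was taken as the replicate (n = 4 and n = 3). Nothing in the labels says that plates came from separate embryos, and the spread that the p-values rest on may be technical.

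The genes lie on 7 chromosomes of GRCm38. Cpa1 (ENSMUSG00000054446, chr6:30639218-30645363, plus strand) encodes a zinc carboxypeptidase that trims aromatic and aliphatic residues, and Cpb1 (ENSMUSG00000011463, chr3:20248264-20275733, minus strand) its counterpart for basic residues. Cel (ENSMUSG00000026818, chr2:28555795-28563403, minus strand) encodes the bile salt-dependent lipase. Clps (ENSMUSG00000024225, chr17:28558149-28560766, minus strand) encodes colipase, the cofactor of pancreatic lipase, and Pnliprp1 (ENSMUSG00000042179, chr19:58728887-58744169, plus strand) encodes a protein related to that lipase. Ctrb1 (ENSMUSG00000031957, chr8:111686519-111691010, minus strand) encodes chymotrypsinogen B, and Spink1 (ENSMUSG00000024503, chr18:43728082-43737557, minus strand) a secreted inhibitor that guards the gland against early trypsin activity. The counts cover the exons of each gene, which span from 611 bases in Clps to 3284 bases in Cpb1.

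Acinar cells make, store and secrete digestive enzymes, most of them as inactive precursors. In the developing pancreas, Cpa1 is known as an early gene of the branch tips, whose cells at first give rise to several lineages and later become acinar, while the trunk gives ducts and endocrine cells. The transcription factors Ptf1a and Rbpjl act together at the promoters of acinar enzyme genes, and Bhlha15 belongs to the maturing secretory cell.

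Promoter windows from RefSeq (GRCm38.p6), from 250 bases before to 50 after the annotated start, were found for 5 of the 7 genes: Cpa1, Cpb1, Cel, Pnliprp1 and Ctrb1. The following 3 windows are shown for the gene that defined the cells studied here (Cpa1, chr6:30638968-30639267, plus strand), the gene detected in the fewest of these cells (Cpb1, chr3:20275684-20275983, minus strand) and the gene whose window held the most motif matches (Cel, chr2:28563354-28563653, minus strand). They read 5′ to 3′ along the gene, and capitals mark a match, on either strand, to 1 of 6 short motifs. The E-box CANNTG is bound by factors such as Ptf1a, and one of its forms, searched on its own, is written CACCTG in these windows. A part of the site of Rbpjl is written TTTCCC here. The type of site bound by Nr5a2 is written AAGGTCA as searched. The site of the Gata family of factors was searched as AGATAA on both strands. The core promoter element that binds the general transcription machinery was searched as TATAAA likewise.
Cpa1: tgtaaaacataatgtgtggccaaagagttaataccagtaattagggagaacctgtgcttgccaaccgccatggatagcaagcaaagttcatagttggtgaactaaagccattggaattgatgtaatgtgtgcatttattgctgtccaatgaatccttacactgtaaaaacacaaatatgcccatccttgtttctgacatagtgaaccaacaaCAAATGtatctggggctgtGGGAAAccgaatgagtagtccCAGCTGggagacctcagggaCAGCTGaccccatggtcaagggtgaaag
Cpb1: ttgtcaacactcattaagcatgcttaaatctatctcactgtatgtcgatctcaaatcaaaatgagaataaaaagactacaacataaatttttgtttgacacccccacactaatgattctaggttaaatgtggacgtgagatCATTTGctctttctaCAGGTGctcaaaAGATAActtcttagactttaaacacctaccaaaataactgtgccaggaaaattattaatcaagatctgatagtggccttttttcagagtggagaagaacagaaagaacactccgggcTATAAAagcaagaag
Cel: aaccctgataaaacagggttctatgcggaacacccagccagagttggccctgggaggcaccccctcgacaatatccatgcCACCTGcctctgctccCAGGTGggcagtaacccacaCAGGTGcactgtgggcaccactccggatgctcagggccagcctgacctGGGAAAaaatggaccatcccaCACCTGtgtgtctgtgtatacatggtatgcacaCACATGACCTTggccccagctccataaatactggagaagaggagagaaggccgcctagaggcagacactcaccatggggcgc
The E-box was matched in 5 of the 5 windows, with 3 places in Cpa1, 2 in Cpb1, 5 in Cel, 2 in Pnliprp1 and 1 in Ctrb1, and in 72.3% of all 32851 promoter windows of this length. The part of the Rbpjl site was matched in Cpa1, Cel and Ctrb1, against 25.2% of all windows. The separate E-box form had 4 places in Cel and 1 in Cpb1, against 20.2% of windows, and each of them is also counted as an E-box. The Nr5a2 type was matched in Cel alone of the 5, where it shares 2 bases with an E-box (4.72% of windows). The Gata type and the core promoter element were matched in Cpb1 alone of the 5 (11.2% and 13.6% of windows), and the core element starts 36 bases into the annotated transcript. These matches describe the letters of the windows and locate no bound factor.

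Of the wells, 601 were kept as cells and 71 were left out. The kept cells numbered 88, 80, 86 and 86 on the E13.25 plates and 87, 85 and 89 on the E15.25 plates. Levels are given as CPM, counts scaled to the total of reads assigned to genes. The median kept cell of a plate had from 773545 to 1526821 such reads, and E15.25 plates were the shallower. Each plate was a mixture. Cells with at least 4 of 8 mesenchyme markers at 100 CPM or more, and without Epcam, numbered from 19 to 61 per plate at E13.25 and 21 on every plate at E15.25. The plate labelled bud 2 trunk held 34 Cpa1-positive cells (1000 CPM or more) among 89, a share of 38.2%, between bud 2 tip (30 of 85, 35.3%) and bud 1 tip (43 of 87, 49.4%). Within these cells, bud 2 trunk had the lowest E15.25 levels of Cpb1, Cel, Clps, Pnliprp1 and Ctrb1, but not of Cpa1 and Spink1. The part of the trunk label was not tested.

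Reads of the 7 genes also appeared in wells whose cells should lack them, and this sets what can be read from low values. In mesenchyme-marker cells at E13.25 the plate medians of Pnliprp1 lay between 0.703 and 5.59 CPM, and at E15.25 between 433 and 773 CPM. Ctrb1 had medians up to 3.45 CPM at E13.25 and between 498 and 802 CPM at E15.25. With wells taken as numbered down columns of 8, which fitted the counts better than rows of 12 on 7 of 7 plates, a well gained from each well of its row 0.0153% to 0.0291% of that well's reads of these genes at E13.25, and 0.119% to 0.158% at E15.25. Reads expected from the other wells of the plate were subtracted. The medians in mesenchyme-marker cells were then at most 21.6 CPM for every one of the 7 genes at either age. The rates were fitted to Pnliprp1, Ctrb1 and Clps in these same cells, so the low medians are no test of the subtraction. The share of variance that the fit explained ran from 0.199 on pancreas 1 to 0.8945 on pancreas 3. At E15.25 a level of 100 CPM is therefore no sign of expression for Cpa1, Clps, Pnliprp1 and Ctrb1, since 77.8%, 84.1%, 98.4% and 100% of the 63 mesenchyme-marker cells reached it. It remains usable for Cel (4.76% of these cells), Cpb1 and Spink1 (0 of 63 each, which allows up to 5.69% by the exact binomial interval).

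Summed over the kept cells of a plate, every one of the 7 genes had a higher mean at E15.25 than at E13.25, and 4 of them rose past the threshold. These were Pnliprp1, Ctrb1, Cel and Clps, in edgeR's quasi-likelihood test with Benjamini-Hochberg adjustment over 20728 genes. Across all genes tested, 0.468% were called higher. Both carboxypeptidase genes and Spink1 did not pass.

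Pnliprp1 stood at 972, 518, 1946 and 985 CPM on the E13.25 plates, pancreas 1 to 4, and at 26654, 15475 and 14575 CPM on bud 1 tip, bud 2 tip and bud 2 trunk. The groups did not overlap, and the log2 change was 4.50 (SE 0.45, adjusted p = 0.0134 by edgeR). Ctrb1 stood at 964, 348, 1052 and 1891 CPM at E13.25 and at 34633, 17603 and 18079 CPM at E15.25, a log2 change of 4.83 (SE 0.58, adjusted p = 0.0210 by edgeR). Its highest E13.25 plate, pancreas 4, was below every E15.25 plate.

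Clps, the colipase gene, stood at 659, 301, 532 and 1113 CPM at E13.25 and at 7847, 5551 and 4908 CPM at E15.25, with a log2 change of 3.60 (SE 0.46, adjusted p = 0.0249 by edgeR). Cel stood at 100.3, 113, 227 and 217 CPM at E13.25 and at 1642, 991 and 946 CPM at E15.25, with a log2 change of 3.25 (SE 0.38, adjusted p = 0.0208 by edgeR). In both genes all 3 later plates lay above all 4 earlier plates.

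Cpa1 stood at 1514, 1090.5, 4248 and 1496 CPM at E13.25 and at 10017, 3619 and 5644 CPM at E15.25. The groups overlapped, because pancreas 3 was above bud 2 tip, and the log2 change of 2.02 (SE 0.50) did not pass (adjusted p = 0.112 by edgeR). Cpb1 was close to absent at E13.25, with 3.32, 0.0625, 0.533 and 5.64 CPM, against 465, 87.8 and 79.3 CPM at E15.25. The groups were apart, but the E13.25 values rest on 1154 reads from 10 cells, and the log2 change of 6.80 (SE 1.46) did not pass (adjusted p = 0.0851 by edgeR). Spink1 stood at 63.6, 30.9, 56.8 and 203 CPM at E13.25 and at 251, 80.1 and 93.3 CPM at E15.25. Its groups overlapped, with a log2 change of 1.02 (SE 0.69, adjusted p = 0.504 by edgeR).

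**Figure D1:**
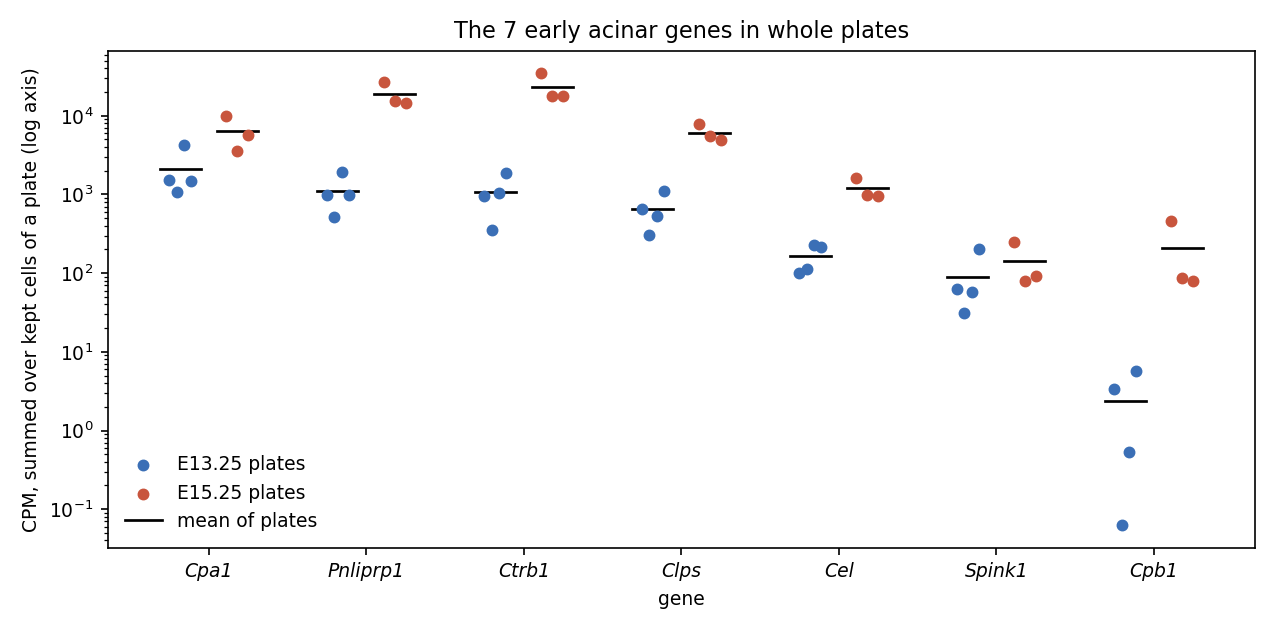
Level of each gene (CPM on a log axis, summed over the kept cells of a plate) on the 4 E13.25 plates (blue) and the 3 E15.25 plates (red), with the mean of the plates as a line. Pnliprp1, Ctrb1, Clps, Cel and Cpb1 do not overlap between ages, whereas Cpa1 and Spink1 do. The share of all genes whose plates are likewise apart was not counted.

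Except for Cpb1 at E13.25, the mean share of each gene's reads that came from Cpa1-positive cells was 89.95% or more, so these sums combine how many such cells a plate held with how much each contained. At E15.25 the Cpa1-positive cells held 97.7% ± 1.4 (SD, n = 3) of the Pnliprp1 reads and 98.2% ± 0.92 of the Cpb1 reads. At E13.25 they held 98.7% ± 1.5 (SD, n = 4) of the Pnliprp1 reads, 89.95% ± 6.61 of the Clps reads and 64.2% ± 46.5 of the few Cpb1 reads. The plates also differed in other cells: the 8 mesenchyme markers together took 1951 to 8428 CPM at E13.25 and 4715 to 5781 CPM at E15.25, and 6 erythroid genes 3731 to 77907 and 15955 to 85209.9 CPM. Their part in the whole-plate values was not tested, and the values within Cpa1-positive cells are given next.

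Leaving out 1 plate at a time left from 0 to 4 of the whole-plate calls. None remained without pancreas 1 or without bud 1 tip, and 1 without pancreas 3, bud 2 tip or bud 2 trunk. Pancreas 1 to 3 had 27.7% to 32.5% of reads unaligned in the median well and the other 4 plates 45.3% to 50.1%, which runs partly with age. With a term for this split no whole-plate call remained (adjusted p = 0.412 to 0.445 by edgeR for the 4 genes). The log2 change was then 4.57 (SE 0.88) for Pnliprp1, 3.93 (SE 0.80) for Ctrb1, 2.76 (SE 0.54) for Clps and 2.76 (SE 0.62) for Cel.

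Cpa1-positive cells made up 13.6%, 7.5%, 22.1% and 19.8% of kept cells on the E13.25 plates (12, 6, 19 and 17 cells) and 49.4%, 35.3% and 38.2% on the E15.25 plates (43, 30 and 34 cells). The means were 15.7% ± 6.6 (SD, n = 4) and 40.97% ± 7.46 (SD, n = 3), and the groups did not overlap. The exact permutation test over plates gave p = 0.0571, two-sided, the smallest that 4 against 3 plates allow. Of the Epcam-positive cells only, a comparison chosen after seeing the data, the shares were 34.2% ± 2.7 (SD, n = 4) and 58.7% ± 10.6 (SD, n = 3), again with exact p = 0.0571.

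Within the Cpa1-positive cells, the same 4 genes rose. The test covered 6 of the genes, since Cpa1 chose the cells, and 1.51% of the 15366 genes tested were called higher. The Cpa1-positive cells of each plate were summed before the fit, so the plate stayed the replicate.

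Pnliprp1 stood at 6612, 4639, 5767 and 3476 CPM in the Cpa1-positive cells at E13.25 and at 50236, 49736 and 42778 CPM at E15.25, a log2 change of 3.70 (SE 0.21, adjusted p = 0.00089 by edgeR). Ctrb1 stood at 6573, 3120, 2955 and 6713 CPM at E13.25 and at 65379, 57147 and 53187 CPM at E15.25, a log2 change of 4.08 (SE 0.34, adjusted p = 0.00254). Each gene was higher on every E15.25 plate than on any E13.25 plate. Clps stood at 4156, 2477, 1312 and 3789 CPM at E13.25 and at 14777, 18003 and 14341 CPM at E15.25, a log2 change of 2.90 (SE 0.36, adjusted p = 0.00891 by edgeR). Cel stood at 683, 1008, 652 and 767 CPM at E13.25 and at 3104, 3206 and 2767 CPM at E15.25, a log2 change of 2.44 (SE 0.19, adjusted p = 0.00252 by edgeR). The plates of an age lay closer together here than in the whole-plate sums, and the 4 calls held whichever plate was left out.

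Cpb1 stood at 13.6, 0, 1.60 and 19.9 CPM at E13.25 and at 878, 288.5 and 231 CPM at E15.25, and did not pass (log2 change 6.22, SE 1.39, adjusted p = 0.0646 by edgeR). Without pancreas 2, the plate with only 6 Cpa1-positive cells, it did pass. Spink1 stood at 433, 274, 164 and 716 CPM at E13.25 and at 469, 259 and 271 CPM at E15.25. The E15.25 plates lay inside the E13.25 range, and the log2 change was 0.23 (SE 0.48, adjusted p = 0.870 by edgeR). Cpa1 itself, as a description, stood at 10234, 9641, 12827 and 5233 CPM at E13.25 and at 18903, 11859 and 16599 CPM at E15.25.

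Some settings removed calls among Cpa1-positive cells. A cut of 5000 CPM of Cpa1 left Pnliprp1 as the only call, in a fit with 2 E13.25 plates, pancreas 3 (13 cells) and pancreas 4 (6 cells), since the others had too few cells. Pnliprp1 was also the only call with the term for the share of unaligned reads, with a log2 change of 4.26 (SE 0.25, adjusted p = 0.00324 by edgeR). Pancreas 4 was the only E13.25 plate with an unaligned share in the range of the E15.25 plates, and the part of this share in the results was not tested. The mesenchyme markers summed to 34.4 to 652 CPM in the Cpa1-positive cells at E13.25 and to 255 to 351 CPM at E15.25, and the erythroid genes to 7.98 to 146 and 386 to 2717 CPM. None of the 8 mesenchyme and 6 erythroid markers was at 0 at either age, and their part in the result was not tested.

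Single cells spread widely around these sums. Among the 54 Cpa1-positive cells of E13.25, Pnliprp1 ranged from 0 to 23641 CPM with a median of 2127, and among the 107 of E15.25 from 423 to 116336 CPM with a median of 35773. Ctrb1 had a median of 1583 CPM at E13.25 and of 48965 CPM at E15.25, and reached 165441 CPM in 1 cell. Cpa1 differed less, with medians of 4434 and 10939 CPM, and its highest cell was at E13.25 (48900 CPM against 44575). Spink1 had a higher median at E15.25 (301 against 93.2 CPM) but its highest cells at E13.25: 7 of 54 cells reached 1000 CPM then, and 2 of 107 at E15.25.

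Per kilobase of exon, which makes levels of different genes comparable, the order changed between the ages. In Cpa1-positive cells at E13.25, Ctrb1 (5513 ± 2373 CPM per kilobase, SD, n = 4), Cpa1 (5419 ± 1802) and Clps (4801 ± 2126) came first and overlapped, followed by Pnliprp1 (2305 ± 613), whose plates (1564 to 2974) overlapped those of Clps (2148 to 6802). Spink1 (544 ± 329) and Cel (370 ± 77) overlapped each other, and Cpb1 (2.68 ± 2.92) came last. At E15.25, Ctrb1 led (66710 ± 7084 CPM per kilobase, SD, n = 3), then Clps (25707 ± 3274), Pnliprp1 (21405 ± 1876) and Cpa1 (9021 ± 2052). Cel (1438 ± 109), Spink1 (457 ± 161) and Cpb1 (142 ± 109) followed. Clps and Pnliprp1 were the closest neighbours near the top at E15.25, and their plates did not overlap (23471 to 29464 against 19243 to 22598).

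As a share of the reads of the 7 genes together, Cpa1 went from 39.7% ± 11.9 (SD, n = 4) at E13.25 to 11.1% ± 2.4 (SD, n = 3) at E15.25. Ctrb1 went from 20.5% ± 8.7 to 41.3% ± 1.1 and Pnliprp1 from 21.3% ± 3.2 to 33.7% ± 1.7. Clps held 13.34% ± 5.18 and 11.2% ± 1.6, with overlapping plates. Cel went from 3.38% ± 1.03 to 2.14% ± 0.13, Spink1 from 1.73% ± 1.18 to 0.234% ± 0.065 and Cpb1 from 0.0456% ± 0.0479 to 0.317% ± 0.220. For the 6 genes other than Clps the plates of the 2 ages did not overlap, at exact permutation p = 0.0571 each (adjusted over 7 genes, 0.0667), the smallest p this design gives; for Clps p was 0.571. No share passed the threshold. The shares of a plate add up to the whole, so they are not separate results. A share can fall while the level of the gene rises, as for Cel. The 7 genes together took 0.24% to 0.806% of the reads of a plate at E13.25 and 4.34% to 8.15% at E15.25, and in Cpa1-positive cells 2.07% to 2.87% and 13.02% to 15.37%.

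**Figure D2:**
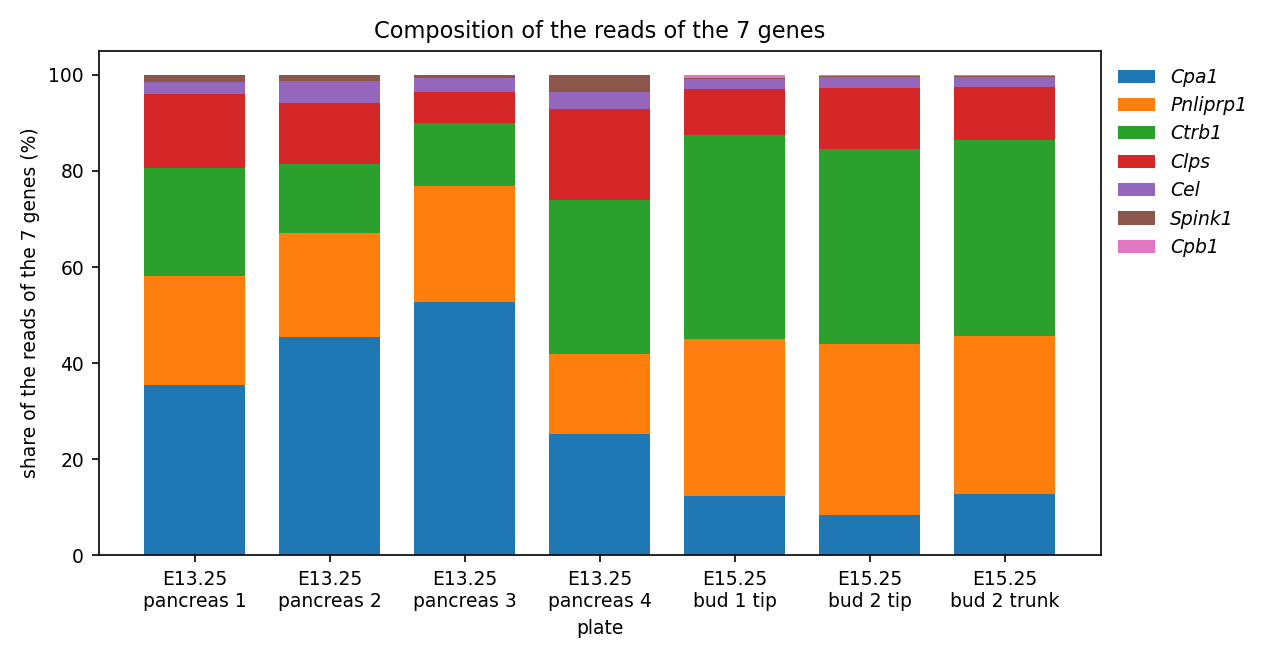
Share of the reads of the 7 genes (%) that each gene holds, per plate. Cpa1 holds 25.3% to 52.7% on the E13.25 plates and 8.34% to 12.7% on the E15.25 plates, while Ctrb1 and Pnliprp1 together hold most of the reads at E15.25.

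An order of detection was read from co-detection at E13.25, where the background is low. These cells were of 1 age, so no time of onset was measured. Median levels were 1359 CPM for Clps, 2127 for Pnliprp1, 1583 for Ctrb1, 466 for Cel, 93.2 for Spink1 and 0 for Cpb1. At a fixed cut a gene of lower level is found in fewer cells, and the part of level in the order was not tested. At 100 CPM or more, 51 of the 54 Cpa1-positive cells had Clps (94.4%, exact 95% binomial interval 84.6% to 98.8%), 47 had Pnliprp1 (87.04%), 45 had Ctrb1 (83.3%), 37 had Cel (68.5%), 27 had Spink1 (50%) and 2 had Cpb1 (3.70%). In the 154 mesenchyme-marker cells of the same age, 0 had Clps, Pnliprp1, Cel or Spink1 at this level, and 1 each had Ctrb1 and Cpb1. The median depth was 1689599 reads in the Cpa1-positive cells and 1197543 in the mesenchyme-marker cells. Cells of a plate share their source, so the intervals cover counting error only. The PCR reads carry no molecular identifiers.

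The genes were nested in most cells. The most frequent pattern, in 24 of 54 cells, was Clps, Pnliprp1, Ctrb1, Cel and Spink1 without Cpb1, followed by the first 4 without Spink1 in 11 cells and the first 3 in 5 cells. Clps and Pnliprp1 without the rest occurred in 4 cells, Clps alone in 2, and 3 cells had none of the 6. Patterns that follow the order Clps, Pnliprp1, Ctrb1, Cel, Spink1, Cpb1 without a gap made up 51 of 54 cells, an order taken from these same cells. No cell had any of the other 5 genes without Clps, whereas 14 had Clps without Cel and 24 had Clps without Spink1. Pnliprp1 was present without Cel in 10 cells and Cel without Pnliprp1 in 0. Pnliprp1 and Ctrb1 could not be ordered, with 4 cells that had only the former and 2 that had only the latter.

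Plate by plate, part of the order was tied. Clps, Pnliprp1 and Ctrb1 had equal shares on pancreas 2 (100% each) and on pancreas 3 (89.5% each), and Cel and Spink1 on pancreas 4 (58.8% each). More cells had Clps without Pnliprp1 than the reverse on 2 of 4 plates, and Clps without Cel on 4 of 4. Parts of this order also depend on the level that counts as detected. Clps, Pnliprp1 and Ctrb1 were ahead of Cel and Spink1, and these ahead of Cpb1, at 10, 100 and 1000 CPM. At 10 CPM Spink1 (44 of 54 cells, 81.5%) was ahead of Cel (41 cells, 75.9%), and at 1000 CPM Pnliprp1 (39 cells, 72.2%) was ahead of Clps (33 cells, 61.1%). With 100 CPM per kilobase of exon the plate means ran from Clps (95.9%) through Pnliprp1 (87.5%), Ctrb1 (84.6%), Cel (65.4%) and Spink1 (53.4%) to Cpb1 at 0.

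The cells' own Cpa1 level ran with the number of other genes present. Of 28 E13.25 cells with 100 to 1000 CPM of Cpa1, just below the limit for a Cpa1-positive cell, 46.4% had Clps, 25% Pnliprp1, 14.3% Ctrb1, 7.14% Cel and 3.57% Spink1. Of the 36 cells with 1000 to 10000 CPM, the shares were 91.7%, 80.6%, 75%, 66.7% and 44.4%. Above 10000 CPM, in only 18 cells, all had Clps, Pnliprp1 and Ctrb1, 72.2% had Cel and 61.1% Spink1. Cpb1 was at 100 CPM in 0, 2 and 0 cells of these ranges. The acinar transcription factor genes ran alongside: Rbpjl was at 100 CPM or more in 7.14%, 77.8% and 100% of the cells, Ptf1a in 7.14%, 44.4% and 66.7%, and Bhlha15 in 0%, 27.8% and 50%.

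**Figure D3:**
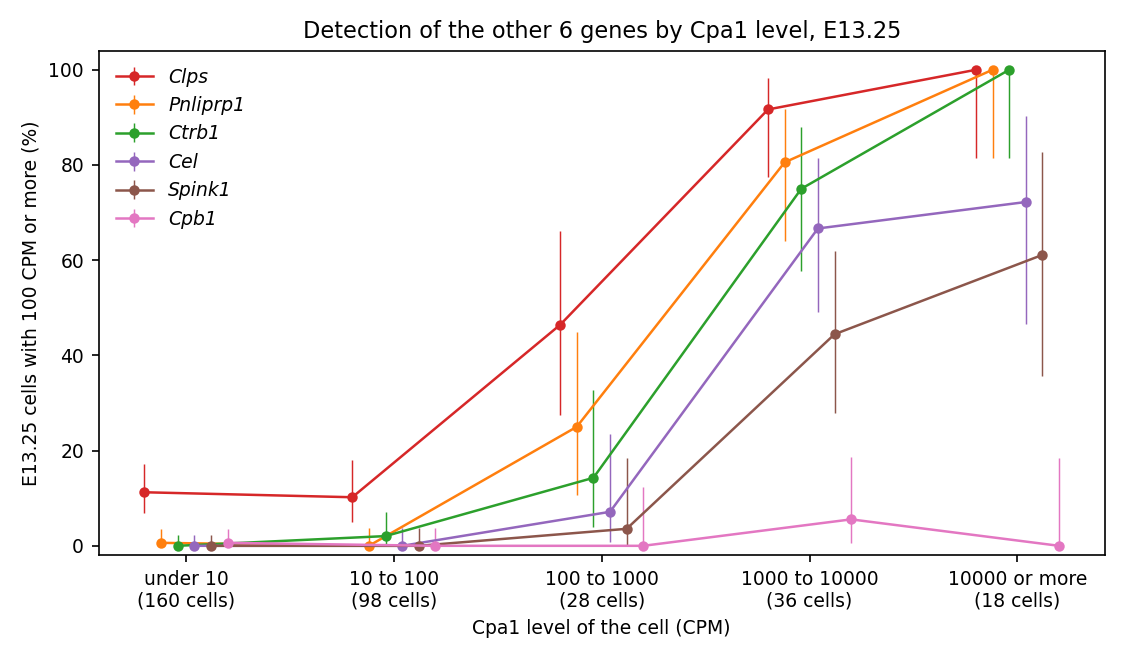
Share of E13.25 cells (%) with 100 CPM or more of each gene, by the cell's Cpa1 level in CPM, with exact 95% binomial intervals that cover counting error only. Clps is ahead of the other genes at every Cpa1 level below 10000 CPM, and Cpb1 stays at 5.56% or less.

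At E15.25 the genes at the end of this order of detection were found in more of the Cpa1-positive cells. Cel reached 97.7%, 100% and 100% of them on the 3 plates, against 58.3%, 83.3%, 78.9% and 58.8% on the E13.25 plates. With reads expected from other wells subtracted, Cel was in 97 of the 107 cells of E15.25 (90.7%), against 106 before. Where the Cpa1-positive cells were also chosen after subtraction, the plate mean for Cel was 96.8% at E15.25. At E13.25 its share stayed at 68.5%. Spink1 reached 83.7%, 73.3% and 64.7%, against 33.3%, 50%, 52.6% and 58.8%. Cpb1 reached 48.8%, 40% and 38.2%, against 8.33%, 0%, 0% and 5.88%. For each of these 3 genes the plates did not overlap, with exact permutation p = 0.0571, two-sided, and 0.114 after adjustment over 6 genes, so that none passed. For Spink1 the direction turns at 1000 CPM, with mean shares of 14.1% at E13.25 and 1.55% at E15.25. Clps, Pnliprp1 and Ctrb1 were at 100 CPM in all 107 cells, but at E15.25 that level is background for them.

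**Figure D4:**
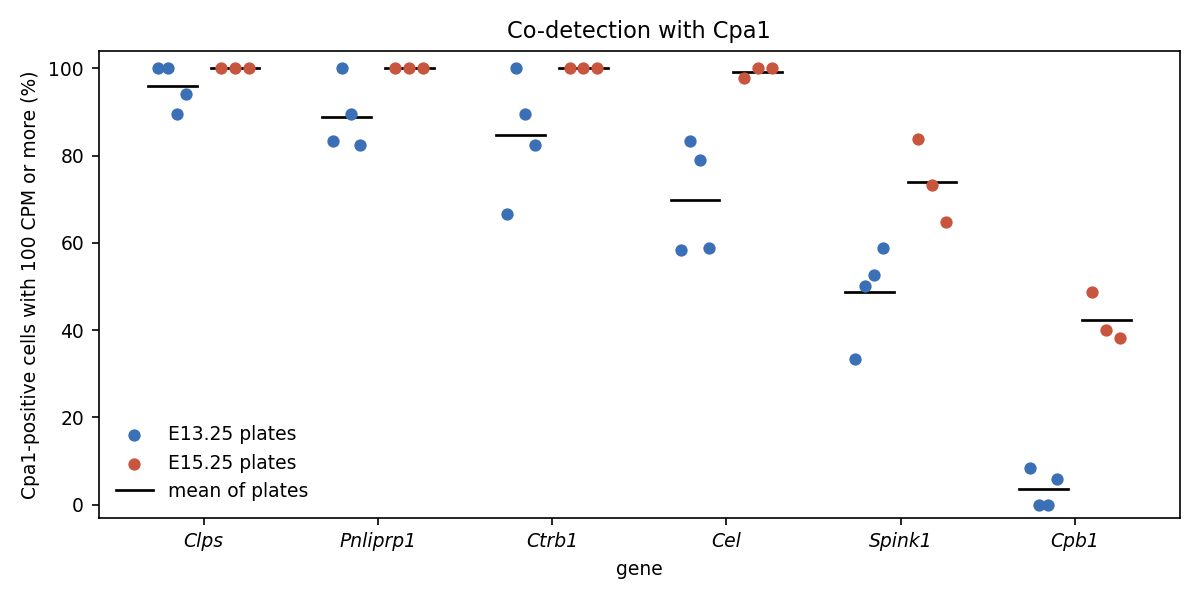
Share of Cpa1-positive cells (%) with 100 CPM or more of each other gene on the 4 E13.25 plates (blue) and the 3 E15.25 plates (red), with the mean of plates as a line. Cel, Spink1 and Cpb1 do not overlap between ages; for Clps, Pnliprp1 and Ctrb1 the E15.25 points are at 100%, a level that mesenchyme-marker cells mostly reach too.

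Cpb1 was the most uneven of the 7 genes at E15.25. Its median in Cpa1-positive cells was 52.2 CPM, its upper quartile 308 CPM and its highest cell 5008 CPM. Only 8 of 107 cells reached 1000 CPM, against 80 of 107 for Cel. At E13.25 only 4 of the 54 Cpa1-positive cells had any Cpb1 read, and the highest of them had 113 CPM. The highest E13.25 level of all, 198 CPM, was in a mesenchyme-marker cell of pancreas 1.

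Clps was the gene found most often outside Cpa1-positive cells at E13.25. It was at 100 CPM or more in 9 of 22 cells with endocrine markers (40.9%, exact 95% interval 20.7% to 63.6%) and in 31 of 81 other Epcam-positive cells (38.3%, 27.7% to 49.7%), against 0 of 154 mesenchyme-marker cells (upper limit 2.37%). Subtracting reads expected from other wells changed none of these counts. In the same endocrine-marker cells the other 6 genes were at this level in 0 of 22, and in the other Epcam-positive cells Cpa1 itself, below its limit of 1000 CPM, was at it in 23.5% (19.8% after subtraction), Pnliprp1 in 9.88%, Ctrb1 in 6.17% and Cel in 2.47%. The levels were low beside those of Cpa1-positive cells, with medians of 59.4 and 37.8 CPM against 1359 CPM. On the 4 plates, 8, 6, 14 and 13 cells had Clps at 100 CPM without being Cpa1-positive, and 33 of these 41 had none of Pnliprp1, Ctrb1 and Cel. At E15.25 the subtracted counts gave Clps in 1 of 19 endocrine-marker cells, 36.8% of 57 other Epcam-positive cells and 6.35% of mesenchyme-marker cells. In those other Epcam-positive cells Pnliprp1 (38.6%) and Ctrb1 (35.1%) had shares like that of Clps. After the same subtraction, however, 25.4% and 14.3% of mesenchyme-marker cells still had Pnliprp1 and Ctrb1, more than had Clps.

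Among Cpa1-positive cells some pairs of genes varied together more closely than others. Correlations are Spearman coefficients over the cells of a plate, averaged over plates with at least 10 such cells, and describe cells that share a plate and a depth range. At E13.25 (3 plates, 48 cells) Pnliprp1 and Ctrb1 went together most closely (0.901, plates 0.853 to 0.949), followed by Ctrb1 with Spink1 (0.804) and Pnliprp1 with Spink1 (0.801). The cells were chosen by their Cpa1 level, so correlations with Cpa1 are not given. At E15.25 (3 plates, 107 cells) Pnliprp1 with Cel (0.755) and with Ctrb1 (0.740) were highest, and Pnliprp1 with Spink1 was at 0.388.

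The genes most like these 7 over all kept cells were found by the Spearman correlation with their mean log2(CPM + 1), averaged over the 7 plates, among 10519 genes. Among the leading 8 were Serpina6 (0.843), Rbpjl (0.770), Cela1 (0.766), Gc (0.756), Cckar (0.724), Nupr1 (0.689) and Vtn (0.678). The members themselves had values from 0.777 for Cel to 0.890 for Clps, to which their own counts contribute, and Cpb1 was detected in too few cells to be ranked. These genes did not share 1 course with age in Cpa1-positive cells. Nupr1 stood at 435 ± 182 CPM on the E13.25 plates (SD, n = 4) and 1273 ± 37 CPM on the E15.25 plates (SD, n = 3), Gc, which encodes the vitamin D-binding protein, at 1718 ± 76 and 565 ± 120, and Vtn, which encodes vitronectin, at 1002 ± 94 and 185 ± 58.

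Over whole plates, 0.468% of all genes tested were called higher. Beside the 7 genes, a list of 26 other digestive enzyme and granule genes had 25 members tested over whole plates, of which 11 rose and 0 fell. Their median log2 change was 5.14, with or without the 1 gene that had no read at E13.25 set to the bound that 3 reads over the group allow, against 3.60 for the 7 genes and -0.05 for all genes tested. The 5 largest changes were those of the trypsinogen genes Prss3, Try10 and Prss1, of Zg16, a granule protein, and of the amylase gene Amy2a5. They started from next to nothing: Try10 stood at 0.0344 ± 0.0117 CPM at E13.25 (SD, n = 4) and 359 ± 151 CPM at E15.25 (SD, n = 3), and Prss1 at 0.0770 ± 0.1037 and 487 ± 112 CPM, with adjusted p of 4.25e-05 and 0.00628 by edgeR. Prss3, without a read at E13.25, reached 110.4 ± 52.2 CPM at E15.25 (SD, n = 3). Amy2a5 stood at 0.0158 ± 0.0235 and 18.8 ± 5.0 CPM, and Zg16 at 0.00249 ± 0.00498 and 9.75 ± 6.23 CPM. At such E13.25 levels these 5 genes passed the low-count filter only through the E15.25 plates and could not have fallen. Their calls and their part in the median of the list are therefore a description. Trypsinogen and amylase genes have near-identical copies, so reads may be split between them. Of the 10 acinar transcription factor genes tested, 2 rose and 0 fell over whole plates, where 0.468% of all genes were called higher. These were Bhlha15 (25.01 ± 12.24 to 207 ± 108 CPM, log2 change 3.45, SE 0.51, adjusted p = 0.0372 by edgeR) and Rbpjl (140.4 ± 46.9 to 435 ± 126 CPM, log2 change 2.05, SE 0.33, adjusted p = 0.0448 by edgeR). Ptf1a did not pass (log2 change 2.125, SE 0.46, adjusted p = 0.0851 by edgeR). Within Cpa1-positive cells 1 of the 10 rose, Bhlha15 (log2 change 2.72, SE 0.27, adjusted p = 0.00414 by edgeR), against 1.51% of all genes called higher. Rbpjl (log2 change 1.21, SE 0.27, adjusted p = 0.0645 by edgeR) and Ptf1a (log2 change 1.25, SE 0.33, adjusted p = 0.108 by edgeR) did not pass.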

How the data were processed

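Reads of single cells in 7 plates of 96 wells were aligned by the authors with GSNAP to mm10 and counted per Ensembl gene with HTSeq 0.5.3p3, per the submitters' processing notes. The deposited values are raw counts with no normalization; the annotation release and strand setting are not given in the sources used here. Rows that name no gene (9.42% of all reads in no feature, 4.14% ambiguous, 40.1% not aligned) and 92 spike-ins (8.12%) were left out of library sizes. Symbols and exon lengths came from GENCODE vM21. Wells with under 100000 gene reads, under 1500 genes or over 20% mitochondrial reads were left out (71 wells). Kept cells of a plate held from 95215056 to 157638042 gene reads. Cells were summed per plate and tested with edgeR 4.0.16 (quasi-likelihood, TMM, its filter on low counts, adjusted p under 0.05); DESeq2 1.42.0 served as an alternative. Shares were compared by exact permutation over plates (scipy 1.17.1), and cells needed at least 5 per plate. The edgeR step was tested on simulated data made from the whole plates: of the genes given 4-fold changes it called 31%, and of those given 16-fold changes 50%, among 20728 genes, with 3 false calls. For Cpa1-positive cells it called 30% and 63% among 15366 genes, with 3 false calls. The genes named are the 7 members, the 8 most similar genes, and the up to 5 largest changes per list past the threshold; 1 gene that this rule names is not reported here. The members, lists, cuts and tests were chosen with earlier results of these data known. Which other settings were tried is given with their effect in the closing section.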

Additional observations from a re-analysis of the deposited data

Results flagged for a closer look

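Cpa1 on the plate of pancreas 3 was flagged as far from the other E13.25 plates: it stood at 4248 CPM over the whole plate, against 1090.5 to 1514 CPM on the other 3. This was 1 of 28 sets of 4 plates examined, of which chance flags about 1 in 20. That plate also had the largest share of Cpa1-positive cells at E13.25, 22.1%, and 12827 CPM of Cpa1 within them, against 5233 to 10234 CPM on the others.

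The wells left out as poor cells held reads of the 7 genes. The 44 such wells of E13.25 had a median of 889 CPM for the 7 genes together, against 28.1 CPM in the kept Cpa1-negative cells of that age, and 16 of them had 1000 CPM or more of Cpa1. The 27 such wells of E15.25 had a median of 28450 CPM, against 1777 CPM in kept Cpa1-negative cells and 119543 CPM in kept Cpa1-positive cells, and 23 of them had 1000 CPM or more of Cpa1. The median depth of the wells left out was 9602 gene reads at E13.25 and 59925 at E15.25. Their CPM thus rest on fewer reads than those of kept cells. The part of reads from other wells in these values was not tested. The wells left out held 5500 and 62535 reads of the 7 genes in all, and keeping every well left the whole-plate calls at 4.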

How the results depend on the processing

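The whole-plate calls among the 7 genes numbered 4 with edgeR's RLE factors, without a low-count filter, with all wells, after subtraction of reads from other wells and without Cpa1-positive cells that carry mesenchyme markers (added after seeing the data). DESeq2 and scaling each cell to the same total each gave 6. The term for plates with under 40% of reads unaligned left 0. Leaving out 1 plate gave 0 to 4. Among Cpa1-positive cells the calls numbered 4 or 5 of 6 in all alternatives but 2, and 1 both with the unaligned-reads term and at 5000 CPM of Cpa1, where only pancreas 3 and 4 (13 and 6 cells) kept enough cells at E13.25. The minimum of 10 cells per plate left out pancreas 2 alone and so repeats that leave-out; leaving out 1 plate gave 4 to 5. The cause of these differences between settings was not tested. Over all genes, edgeR called 97 higher and 44 lower in whole plates, DESeq2 1171 and 1508, edgeR with each cell scaled 350 and 214, and with the unaligned-reads term 1 and 0. Among Cpa1-positive cells the counts were 232 and 108, with DESeq2 1075 and 1024, and at 5000 CPM 8 and 0.

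Spink1 turned to a lower level at E15.25 in 6 alternatives, none past the threshold: -0.22 over whole plates with the unaligned-reads term, and among Cpa1-positive cells -0.61 with that term, -0.18 at 100 CPM and -0.84 at 5000 CPM of Cpa1, -0.03 without pancreas 3 and -0.11 without bud 1 tip, in a range of -0.11 to 0.68 when 1 plate was left out. The minimum of 10 cells and the restriction to Epcam-positive cells were also added after seeing the data. The difference in the Cpa1-positive share stayed positive in all alternatives run, from 20.999 to 58.02 percentage points. The largest was at a cut of 100 CPM of Cpa1. At E15.25, 77.8% of mesenchyme-marker cells reached that level, against 5.2% at E13.25, so that cut does not mark Cpa1 expression at E15.25. No paired analysis was possible because well, pancreas and bud numbers shared between groups mark no common animal, litter or batch. Thinning each cell to 100000 reads left Cpb1 in 2.08% (plate mean) of Cpa1-positive cells at E13.25, and reads from other wells limit low levels at E15.25.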
